A study of Mus musculus with 47 samples.

Results

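The 7 genes of the mu class and the alpha class genes Gsta2, Gsta3 and Gsta4 of the cytosolic glutathione S-transferases were followed across liver, fat and muscle of mice on a control or a methionine-restricted diet. The members were taken by name (Gstm1 to Gstm7 and the 3 alpha genes), which gave 10 of the 26583 gene symbols held by all 4 deposited count tables. The 12 animals were male mice of the inbred strain C57BL/6J that entered the study at 5 weeks of age. For 11 weeks 6 of them ate the control diet and 6 the methionine-restricted diet without limit, at 23 C, and tissues were collected after a fast of 5 h. Inguinal white fat (IWAT), interscapular brown fat (BAT), liver and skeletal muscle (gastrocnemius) of the same animals gave 47 libraries in 8 groups, with 6 libraries in every group except restricted muscle, which had 5 because MR3113 had no muscle library in the files used here. Animals are named below by number, with CON for the control and MR for the restricted diet.

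Glutathione S-transferases join the tripeptide glutathione to electrophilic compounds, among them drugs, carcinogens and the reactive aldehydes formed when membrane lipids are oxidised. The conjugates leave the cell through export pumps and are processed further into mercapturates. Glutathione contains cysteine, which mammals can make from methionine, and many genes of the mu and alpha classes are transcribed under the control of the stress-responsive factor NRF2. Mu and alpha enzymes work as dimers, are abundant in the cytosol of liver cells, and include Gsta4, whose enzyme prefers 4-hydroxynonenal, an aldehyde from lipid peroxidation.

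The libraries hold 27-base tags that start at a recognition site of the restriction enzyme NlaIII near the 3' end of each transcript, so a gene is counted through a single short stretch of its sequence. The tag expected for each member is shown because closely related transferases can be told apart only by these bases. Capitals mark the NlaIII site, and the tags were read from GENCODE vM1 protein-coding transcripts. For Gstm4 the site nearest the transcript's end left fewer than 27 bases, so the last site with a full tag is shown.
Gstm1: CATGgccccttcttcattggctccctg
Gstm2: CATGagtgctctgctggccctagctct
Gstm3: CATGtacaataaagcctgaaacacact
Gstm4: CATGcaggtctcagtggtgaggatcca
Gstm5: CATGtgccgttttgaggctttggagaa
Gstm6: CATGtttctaaccagacaatctttcac
Gstm7: CATGaaccagaataaatcattctccgc
Gsta2: CATGgacaagactaccttgtgggcaac
Gsta3: CATGatcacttcctcggatattttctt
Gsta4: CATGtatgcagatggcacccaggacct
The tags of Gsta2 and Gsta4 lay in the coding sequence and those of the other members in the 3' untranslated region.

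Most members were distinct at the tag although their coding sequences are close. The coding sequences of Gstm1 and Gstm3 were 89.5% identical and those of Gstm2 and Gstm6 86.3% identical, while the lowest identity within the mu class was 69.7% for Gstm3 and Gstm5 and that of the alpha pair Gsta3 and Gsta4 was 66.2%. The tag of Gstm1 differed by 3 mismatches from a site in Gstm3. The tags of the other mu members, Gsta3 and Gsta4 differed by at least 5 mismatches from every site searched in other genes. Gsta2 was the exception. Its tag was identical to a site in Gsta1, Gm10639 and Gm3776, and the coding sequences of Gsta1 and Gsta2 were 97.9% identical. These 3 symbols held 0 tags in every library. Tags with more than 1 match were not kept, so the site that gave the tags listed under Gsta2 is not known. Whether they include tags of those copies is not known either.

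The mu genes lie side by side on chromosome 3 in RefSeq on GRCm38.p6, from 107895854 to 108045179, in the order Gstm5, Gstm7, Gstm6, Gstm3, Gstm2, Gstm1 and Gstm4. Gstm1 spans chr3:108012250-108017973 and Gstm6 spans chr3:107938847-107953641. Gsta3 lies apart on chromosome 1 (chr1:21240565-21265575). Gsta2 (chr9:78331018-78347192) and Gsta4 (chr9:78191966-78209349) share a stretch of chromosome 9. The antioxidant response element is the motif bound by NRF2, and its core, TGACNNNGC on either strand, was found in the promoter window (250 bases before to 50 after a RefSeq start) of Gsta3, Gstm5 and Gstm7. Of the members, 9 had such a window. The other 6, Gstm1, Gstm2, Gstm3, Gstm4, Gstm6 and Gsta2, did not hold these letters there, and of all 27025 genes with a window 14.0% did.

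The libraries of IWAT held 4887004 to 7094761 tags, those of BAT 5252688 to 13117537, those of liver 7710740 to 12130444 and those of muscle 7756320 to 12829112. Levels are given as CPM (tags of the gene scaled to the total of the library), with no correction for length because a transcript gives a single tag. Where a gene has 0 tags, its level can still be as high as 0.229 to 0.614 CPM by library (3 tags), from counting error alone. The tissues carried their defining markers: summed hepatocyte markers were 105835 to 230636 CPM in liver, summed skeletal muscle markers were 126234 to 177289 CPM in control muscle, and summed adipocyte markers were 34676 to 88862 CPM in IWAT and 20305 to 38726 CPM in BAT. In 4 libraries the profile stood apart, with a median rank correlation (Spearman) under 0.8 to libraries of the same tissue. In IWAT these were CON3106 and CON3115 and MR3116 (0.711 to 0.792, against 0.884 to 0.933 in the other 9). In muscle it was MR3101 (0.656, against at least 0.925), whose muscle markers summed to 11636 CPM. These libraries were kept, and tests that rest on them are given also without them. Correlations between genes include them.

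Several members were low in the 4 libraries that stand apart, while others were not. Gstm1, Gstm2, Gstm5 and Gsta4 lay below every other library of the tissue in all 4 of them. The share of all genes that did so was not counted. Gstm1 had 15.8, 55.0 and 2.41 CPM in CON3106, CON3115 and MR3116 of IWAT, against a median of 216 CPM in the other IWAT libraries, and 1.92 CPM in MR3101 of muscle against a median of 150 CPM. Gsta4 had 2.21, 7.47 and 0.483 CPM in the same 3 IWAT libraries, against a median of 84.8 CPM, and 0.240 against 17.3 CPM in muscle. Gsta3 was not low there. It had 988, 548 and 240 CPM in the 3 IWAT libraries, against a median of 248 CPM, and 13.6 against 4.22 CPM in muscle. These 4 low members have tags that start 229 to 560 bases before the transcript's end, and the tag of Gsta3 starts 207 bases before it, that of Gstm4 226. Members with shorter distances were low in IWAT as well: Gstm7, at 30 bases, had 57.4% to 73.6% of the median of the other libraries in the 3 IWAT libraries, below every other IWAT library, and 81.6% in muscle. Gstm6, at 138 bases, was below every other IWAT library in CON3106 (55.5%) and MR3116 (17.7%) but not in CON3115 (68.2%), and was at the median in muscle (0.240 against 0.237 CPM). Over the 3828 to 5074 genes with at least 20 CPM and a known distance, the Spearman correlation between a library's log2 ratio to its tissue and this distance was -0.491 to -0.376 in the 4 libraries and -0.289 to 0.247 in the other 43. The correlation with the GC content of the tag was -0.499 to -0.466 in the 4 and -0.201 to 0.22 in the others. Tag distance and tag GC content are both properties of the gene, and their part in these values was not tested.

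On the control diet, liver held far more transferase RNA than the other tissues, and most of it was Gsta3. The 10 members summed to 7731 ± 1260 CPM in liver (SD, n = 6), 1009 ± 449 in IWAT, 453 ± 77.8 in BAT and 220 ± 53.7 in muscle. The mu class made up 13.1% of the sum in liver, 31.7% in IWAT, 59.9% in BAT and 87.7% in muscle. In IWAT this share was 3.27% in CON3106 and 13.4% in CON3115, which stand apart. It was 21.4% to 52.1% in the other control libraries of IWAT. Tissues were compared in pairs with edgeR's quasi-likelihood test over 12854 genes, and fold changes are log2 values ± SE, positive where the first tissue is higher. Of 54 member tests, 32 passed an adjusted p of 0.05. The share of all genes that passed is also large: liver over muscle had 7 of 9 members tested against 60.3% of genes, and BAT over liver 7 of 9 against 51.9%. IWAT over BAT and IWAT over liver had 5 each, against 38.2% and 53.2%. IWAT over muscle and BAT over muscle had 4 each, against 55.8% and 44.1%. With libraries scaled to their totals, the median of all genes moved by -0.21 (liver over muscle) to 0.81 (IWAT over liver) on the log2 scale, and no call on a member changed its direction.

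**Figure D1:**
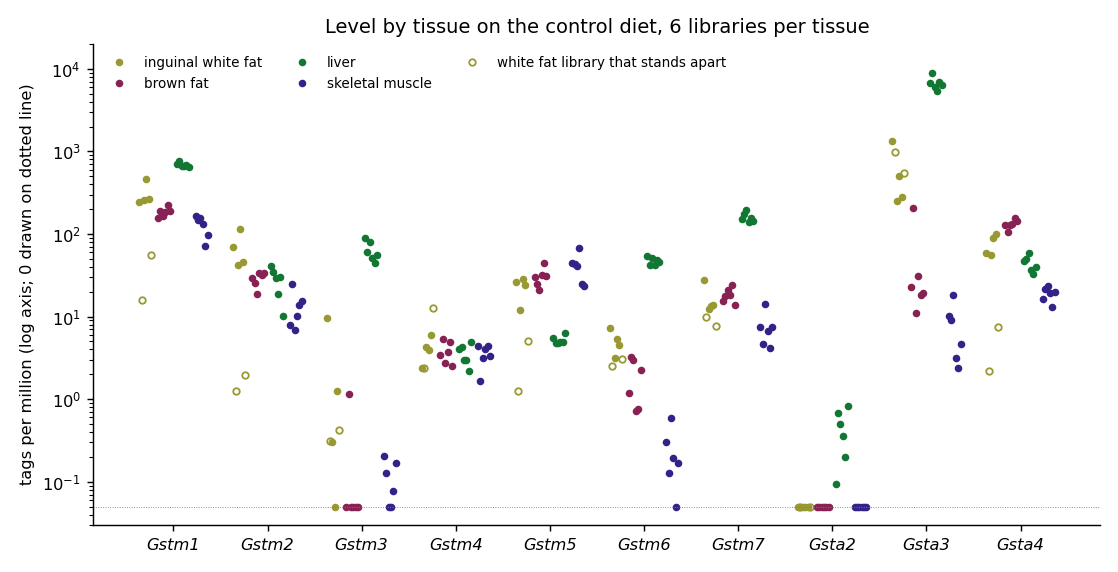
Levels of the 10 members in the 4 tissues on the control diet, in CPM (vertical axis, log scale, with 0 drawn on the dotted line), with a point for each of 6 libraries per tissue and open circles for the 2 IWAT libraries that stand apart. Gsta3 spans from 2.42 CPM in muscle to 8893 CPM in liver, while the points of Gstm4 lie close together in all 4 tissues.

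Gsta3, an alpha class transferase abundant in rodent liver, was the member with the widest range over tissues. Its level in the control libraries was 5381 to 8893 CPM in liver (median 6514), 248 to 1353 in IWAT (median 524), 11.2 to 206 in BAT (median 20.9) and 2.42 to 18.2 in muscle (median 6.93). The liver range did not touch that of any other tissue, and BAT overlapped muscle. The log2 difference was 9.99 ± 0.89 for liver over muscle (adjusted p = 1.04e-09), -4.0 ± 0.68 for IWAT over liver (adjusted p = 2.34e-05) and 3.61 ± 0.67 for IWAT over BAT (adjusted p = 0.000256). All 6 pairs of tissues passed for Gsta3, so its order was liver, IWAT, BAT, muscle. BAT over muscle was 2.38 ± 0.64 (adjusted p = 0.00377), and without CON3106, whose BAT library held 206 CPM, it was 1.28 (adjusted p = 0.0452).

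Gsta4, the 4-hydroxynonenal transferase, followed another order, with its highest level in brown fat. Control libraries held 107 to 157 CPM in BAT, 2.21 to 100 in IWAT, 32.5 to 58.1 in liver and 13.2 to 23.6 in muscle. BAT did not overlap any of the others. Gsta4 was higher in BAT than in IWAT (IWAT over BAT -1.80 ± 0.46, adjusted p = 0.00392), than in muscle (2.57 ± 0.47, adjusted p = 0.000104) and than in liver (1.15 ± 0.45, adjusted p = 0.0359). The call against liver was lost in 6 of 12 alternatives (adjusted p up to 0.096), among them the animal as a replicate block (adjusted p = 0.0663). Liver exceeded muscle (1.42 ± 0.46, adjusted p = 0.00969), and IWAT did not differ from liver or from muscle beyond the spread. Without the 2 control IWAT libraries that stand apart, Gsta4 in IWAT was 76.2 ± 22.2 CPM (SD, n = 4) and exceeded muscle (1.29, adjusted p = 1.51e-05).

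Gsta2, an alpha class gene inducible by xenobiotics, had few tags. On the control diet it had 1 to 10 tags per liver library (0.442 ± 0.281 CPM) and 0 tags in every control library of IWAT, BAT and muscle. Its tag is shared with 3 other genes and tags with more than 1 match were not kept, so its counts may leave out tags, and a count of 0 sets no upper limit on its level.

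Gstm1, the most abundant mu gene, was present in all tissues and highest in liver. It had 690 ± 41.5 CPM in liver (SD, n = 6; 655 to 766), 216 ± 162 in IWAT (15.8 to 460), 185 ± 24.3 in BAT (157 to 226) and 128 ± 36.2 in muscle (71.2 to 164). Liver exceeded muscle by 2.67 ± 0.41 (adjusted p = 4.23e-06), BAT over liver was -2.37 ± 0.40 (adjusted p = 2.52e-05) and IWAT over liver -2.61 ± 0.41 (adjusted p = 7.91e-06). IWAT, BAT and muscle did not differ from each other beyond the spread. Without the 2 control IWAT libraries that stand apart, Gstm1 in IWAT was 307 ± 103 CPM (n = 4) and exceeded muscle by 0.53 (adjusted p = 0.0266).

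Gstm7, Gstm3 and Gstm6 were also highest in liver. Gstm7 had 159 ± 20.1 CPM in liver, 18.4 ± 3.63 in BAT, 14.1 ± 6.90 in IWAT and 7.46 ± 3.58 in muscle (SD, n = 6 each), and liver exceeded each of the others (4.65 ± 0.29 over muscle, adjusted p = 5.20e-12). IWAT over BAT also passed for Gstm7 (-0.70 ± 0.26, adjusted p = 0.0354) and did not without the 2 control IWAT libraries that stand apart (-0.59, adjusted p = 0.0934). This call was lost in 6 of 12 alternatives (adjusted p up to 0.283). Gstm6 had 47.5 ± 5.10 CPM in liver, 4.33 ± 1.78 in IWAT, 1.86 ± 1.14 in BAT and 0.231 ± 0.202 in muscle. The 5 pairs other than IWAT over BAT passed for Gstm6, with 7.90 ± 0.49 for liver over muscle (adjusted p = 3.50e-12). IWAT over BAT was 0.89 ± 0.37 (adjusted p = 0.0597), and 0.97 without those 2 libraries (adjusted p = 0.0470). Gstm3 had 63.6 ± 17.4 CPM in liver and averaged 1.97 CPM in IWAT, 0.191 in BAT and 0.0963 in muscle. In IWAT the Gstm3 tags were uneven, with 64 in CON3103 and a median of 2.5 over the 6 control libraries, and CON3103 also had the highest sum of hepatocyte markers in IWAT, 11503 CPM. In BAT all 15 Gstm3 tags of the control group came from CON3106, the library that also had the most Gsta3. Gstm3 passed for IWAT over BAT (2.70 ± 0.95, adjusted p = 0.0275), a call lost with the replicate block (adjusted p = 0.0801) and without CON3103 (0.45, adjusted p = 0.730). Gstm3 also passed for IWAT over muscle (3.62 ± 1.08, adjusted p = 0.00644), which without CON3103 was 1.85 (adjusted p = 0.156).

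Gstm5 had the reverse order, with its highest mean in muscle and its lowest in liver. Control libraries held 23.3 to 68.4 CPM in muscle, 21.3 to 44.7 in BAT, 1.26 to 28.2 in IWAT and 4.77 to 6.35 in liver. Liver over muscle was -2.74 ± 0.42 (adjusted p = 3.78e-06) and BAT over liver 2.09 ± 0.41 (adjusted p = 0.000136), while BAT over muscle did not pass (-0.66 ± 0.39, adjusted p = 0.177) and passed without the 2 control IWAT libraries that stand apart (-0.65, adjusted p = 0.0247). IWAT overlapped liver only through the 2 control libraries that stand apart, and without them Gstm5 was higher in IWAT (1.20, adjusted p = 0.000781).

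Gstm2 and Gstm4 passed in none of the 6 pairs. Gstm2 had 45.7 ± 42.7 CPM in IWAT, 28.7 ± 5.86 in BAT, 27.4 ± 11.1 in liver and 13.2 ± 6.59 in muscle. Without the 2 control IWAT libraries that stand apart, Gstm2 was higher in IWAT (1.56, adjusted p = 0.00107), liver (1.19, adjusted p = 0.00385) and BAT (0.82, adjusted p = 0.0460) than in muscle. Gstm4 ranged from 3.49 ± 1.02 CPM in muscle to 5.28 ± 3.93 in IWAT, and without those 2 libraries IWAT over liver passed (-0.75, adjusted p = 0.0460). The CPM means ran the other way, with 4.12 in IWAT without those 2 libraries and 3.57 in liver. With library totals and all control libraries, IWAT over liver was 0.57 (adjusted p = 0.176), so the sign of this difference depended on the scaling and the libraries.

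Methionine restriction changed transferase RNA in liver. Gstm1 and Gsta4 rose about as much as each other in proportion, Gstm6 fell slightly, and Gsta3, the most abundant member, did not pass. Of 10969 genes tested in liver, 248 passed (2.26%), 115 of them higher under restriction (1.05%), and of the 9 members tested 2 were higher and 1 lower. The median log2 fold change of the 9 members was 0.09, against 0.01 over all genes tested. In bulk tissue, a change in the share of a cell type and a change in the RNA per cell cannot be told apart. Summed hepatocyte markers were 149203 to 230636 CPM in control and 105835 to 196883 in restricted liver.

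Gstm1 had 655, 675 and 766 CPM (lowest, median and highest) in the 6 control livers and 1151, 1429 and 1683 CPM in the 6 restricted livers. Every restricted library was above every control library. The means were 690 ± 41.5 and 1423 ± 172 CPM (SD, n = 6 and 6), a ratio of 2.06. The edgeR log2 fold change was 0.86 ± 0.10 (adjusted p = 0.000378).

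Gsta4 was 32.5, 43.4 and 58.1 CPM (lowest, median and highest) in control liver and 67.1, 97.1 and 137 CPM in restricted liver. Again the groups did not overlap. The means were 44 ± 9.35 and 97.8 ± 26.5 CPM, with a log2 fold change of 0.99 ± 0.18 (adjusted p = 0.00794). The rise of Gstm1 and of Gsta4 stayed past the threshold in all 7 other settings and in each of 12 fits that left out a library, with a log2 fold change between 0.82 and 1.05 for Gstm1 and between 0.88 and 1.15 for Gsta4.

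Gstm6 fell by 0.44 ± 0.10 on the log2 scale (adjusted p = 0.0396). It had 41.7, 47.2 and 54.4 CPM (lowest, median and highest) in control liver and 31.9, 40.5 and 49.9 CPM in restricted liver, so the groups overlapped. With the TMM factors used in the test applied, the ranges were 44.1 to 56.5 and 31.4 to 45.4 CPM. This call was lost in 9 of the 12 fits without a library (adjusted p up to 0.0962), without the filter on low counts (adjusted p = 0.0582) and with library totals (-0.25, adjusted p = 0.215). Its neighbour Gstm7 had 159 ± 20.1 and 136 ± 27.4 CPM, with a log2 fold change of -0.40 ± 0.13 that did not pass (adjusted p = 0.124).

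Gsta3 had 5381, 6514 and 8893 CPM (lowest, median and highest) in control and 7064, 7944 and 9424 CPM in restricted liver, with overlap. Its log2 fold change was 0.09 ± 0.14 (adjusted p = 0.813). The CPM means, 6690 and 8065, lie further apart than this fold change because the TMM factors were 0.863 to 1.02 in control and 1.00 to 1.13 in restricted livers. With library totals in place of these factors, the median log2 fold change of all genes moved by 0.18, and the share of called genes that were higher under restriction went from 46.4% to 87.4%. The log2 fold change of Gsta3 was 0.27 at most under the alternatives and never passed.

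The other mu genes of liver did not pass. Gstm3 had 44.5 to 89.9 CPM in control and 33.8 to 159 CPM in restricted liver (0.38 ± 0.28, adjusted p = 0.579). Gstm2, Gstm4 and Gstm5 had log2 fold changes of -0.41, -0.20 and 0.11. Gsta2 was too low for the filter and was tested on its own. Its tags numbered 1 to 10 in the control livers and 7 to 28 in the restricted ones, overlapping. The means were 0.442 ± 0.281 and 1.73 ± 0.711 CPM (SD, n = 6 and 6). They differed in an exact two-sided permutation test (p = 0.00433, Benjamini-Hochberg adjusted p = 0.0130 over the 3 members tested this way). Entry to this test took at least 100 tags in the tissue, summed over both diets. Gsta2 had 133 tags in liver, 29 in control and 104 in restricted livers. It thus entered mainly through the diet in which it was higher. In the 9 settings in which edgeR or limma tested it over all genes, Gsta2 was higher in each, by 1.53 to 2.06, and passed in 4. Without the low-count filter it did not pass (1.74, adjusted p = 0.0517). With limma on the deposited signal it passed (1.69, adjusted p = 0.0461). The remaining settings left out a library, and there Gsta2 came past the filter through the restricted livers, where it was higher. Their calls are therefore not separate support.

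**Figure D2:**
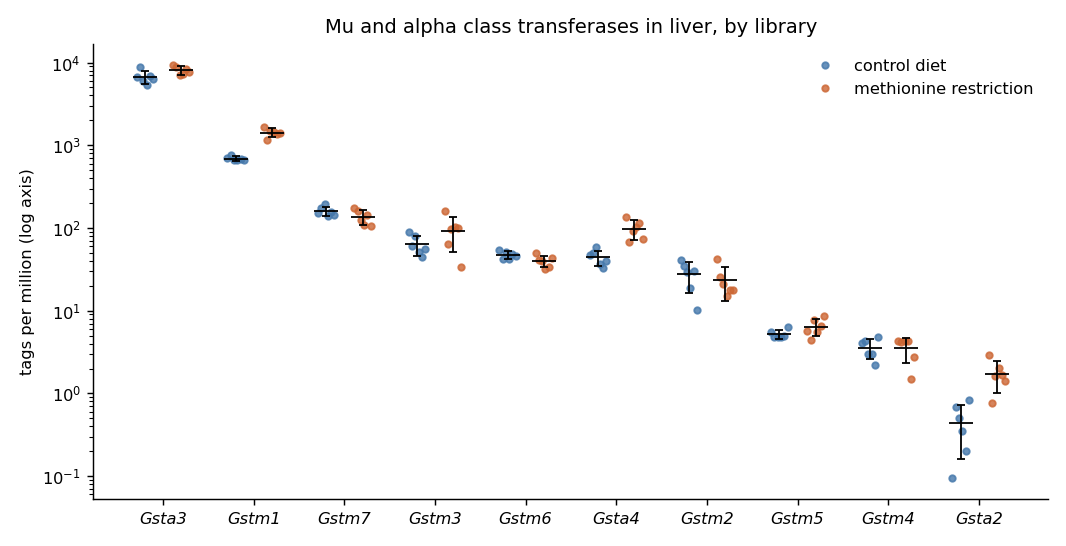
Level of the 10 members in each liver library, in CPM (vertical axis, log scale), with a point for each of 6 control and 6 restricted livers, the mean as a line and bars of 1 SD. The points of the 2 diets are separate for Gstm1 (up to 766 against at least 1151 CPM) and for Gsta4 (up to 58.1 against at least 67.1 CPM).

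Summed over the family, liver held 7731 ± 1260 CPM on the control diet and 9890 ± 1041 CPM under restriction, and the mu class made up 13.1% and 17.5% of it. These sums are CPM without TMM factors, and their difference was not tested. With library totals in place of TMM, the median log2 fold change of all liver genes moved up by 0.18. After the diet means were subtracted, the Pearson correlation between members over the 12 liver libraries had a median of 0.20 over 36 pairs, with a range of -0.59 to 0.83. It was highest for Gsta4 and Gstm3 (0.83), and 0.61 for Gsta4 and Gstm1, the members that rose. The libraries share depth and preparation, and these values are descriptions. By the same measure, the genes most like Gstm1 in liver were C85492 (0.883), the epoxide hydrolase gene Ephx1 (0.873) and Cops6 (0.869). The closest to Gsta4 were Mff (0.936), Cpne8 (0.891) and LOC100504256 (0.879), and the closest to Gstm6 were Mras (0.917), Idi1 (0.912), a gene of isoprenoid synthesis, and Vapa (0.889).

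In brown fat no member passed the test. Of 10791 genes, 120 passed (1.11%), and 0 of 7 members did in edgeR, limma voom and DESeq2, where DESeq2 gave Gsta3 no adjusted p. At an unadjusted p under 0.05 there were 3, Gsta3, Gsta4 and Gstm2, each with a negative fold change, where 13.6% of all genes were under it. Gsta4 had 107, 131 and 157 CPM (lowest, median and highest) in control and 73.5, 101 and 112 CPM in restricted BAT, with a log2 fold change of -0.38 ± 0.14 (adjusted p = 0.244). Gstm2 had 28.7 ± 5.86 and 18.1 ± 5.89 CPM (-0.56 ± 0.21, adjusted p = 0.252). The summed brown adipocyte markers were 2206 to 4121 CPM in control and 4263 to 6784 CPM in restricted BAT, and their part in these values was not tested.

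The size of the Gsta3 fold change in BAT depended on a single library. Control libraries had 11.2, 20.9 and 206 CPM (lowest, median and highest) and restricted libraries 5.01, 8.18 and 17.3 CPM. The highest value was that of CON3106, and the next control was at 30.6 CPM. In that library the hepatocyte markers summed to 3928 CPM, against 24.5 to 116 CPM in the other controls and 21.8 to 113 CPM in the restricted libraries. Of the 10 markers listed, 9 were in the table, and all 9 were above 0 in CON3106. That library also had the highest sums of white adipocyte markers (110 CPM, next control 72.4), lymphocyte markers (475 CPM, next 7.82) and fibroblast and matrix markers (847 CPM, next 719). Their part in the value of Gsta3 was not tested. The log2 fold change was -2.27 ± 0.65 (adjusted p = 0.135). It was -1.01 without CON3106 (adjusted p = 0.200) and -0.94 with the hepatocyte marker level as a covariate (adjusted p = 0.268). The genes most like Gsta3 in BAT were Ptges (Pearson correlation 0.954 over 12 libraries), 1100001G20Rik (0.935) and Arl6ip5 (0.907). The 12 include CON3106, and these correlations are not given without that library.

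In inguinal fat, Gsta3 had lower values in most restricted libraries and did not pass. The control libraries had 1353, 988, 248, 499, 282 and 548 CPM and the restricted libraries 82.0, 88.5, 161, 135, 388 and 240 CPM. All 6 controls were above 5 of the restricted libraries, and MR3113, at 388 CPM, was above 2 of the controls. The log2 fold change was -1.80 ± 0.59 (adjusted p = 0.293), and it was -1.79 without the 3 libraries that stand apart (adjusted p = 0.205). With the hepatocyte marker level as a covariate it was -1.81 (adjusted p = 0.281). Hepatocyte markers summed to 366 to 11503 CPM in control and 240 to 8614 CPM in restricted IWAT, with the highest sums in CON3103 and MR3113, which also had the most Gsta3 of their groups. Other markers moved with the diet in IWAT: white adipocyte markers were 438 to 2353 CPM in control and 95.3 to 361 CPM in restricted libraries, brown adipocyte markers 83.7 to 733 and 815 to 2921 CPM, and fibroblast and matrix markers 2311 to 7213 and 1032 to 1470 CPM. Their part in the values of Gsta3 was not tested.

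The count in IWAT was 0 of 8 members in edgeR, DESeq2 and limma voom, with 3 of 11101 genes called (0.027%), and 1 member, Gsta3, at an unadjusted p under 0.05, where 8.78% of all genes were under it. Gsta3 varied over the 12 libraries most like Abat (0.981), Pcbd1 (0.981) and Cth (0.943). Abat breaks down the neurotransmitter GABA, and Cth is the last enzyme of cysteine synthesis from methionine. The 12 include the 3 libraries that stand apart, and these correlations are not given without them. Gstm2 had 45.7 ± 42.7 CPM in control and 18.8 ± 9.97 CPM in restricted IWAT, with a log2 fold change of -1.15 ± 0.93 (adjusted p = 0.939). Without the 3 libraries that stand apart it was -1.49 (adjusted p = 0.0778). Gstm1 and Gsta4 had log2 fold changes of -0.32 ± 0.75 and 0.57 ± 0.86, and each had its lowest value in MR3116. Without the 3 libraries that stand apart, Gstm1 had 243 to 460 CPM in control (n = 4) and 154 to 216 CPM in restricted IWAT (n = 5). Gsta4 then had 55.4 to 100 CPM in control and 76.3 to 102 CPM in restricted IWAT. No gene passed the adjusted threshold in that fit.

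**Figure D3:**
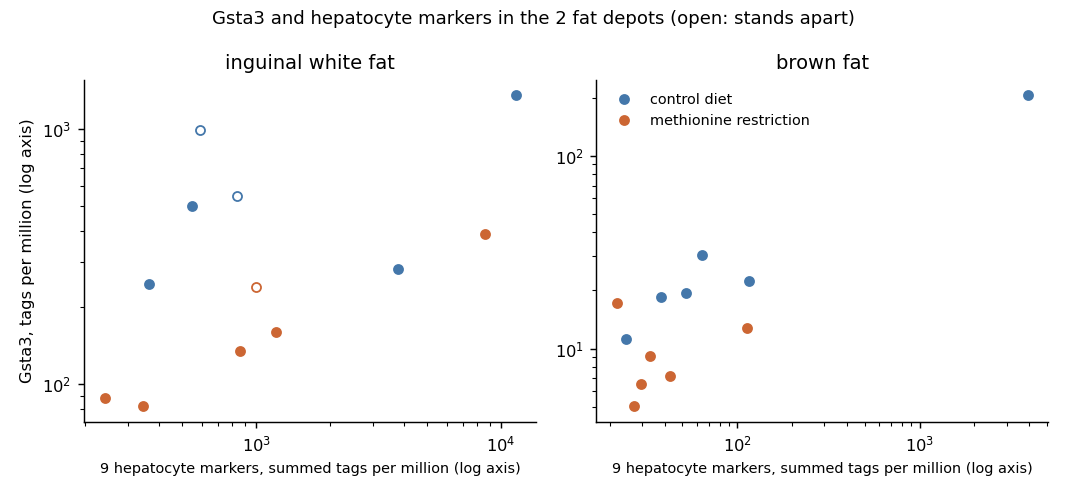
Gsta3 (vertical axis, CPM, log scale) against the sum of 9 hepatocyte markers (horizontal axis, CPM, log scale) in each library of IWAT and BAT, coloured by diet, with open circles for the libraries that stand apart. The BAT library of CON3106, at 206 CPM of Gsta3 and 3928 CPM of markers, lies away from the other BAT libraries.

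In muscle, no gene passed. The count was 0 of 11225 genes (0%) and 0 of 7 members in edgeR, with 709 genes (6.32%) and 0 members at an unadjusted p under 0.05, and 0 members in DESeq2 and limma voom. Gstm4 had the largest fold change, 0.88 ± 0.51 (adjusted p = 0.789), from 3.49 ± 1.02 to 5.18 ± 3.0 CPM (SD, n = 6 and 5). Without MR3101 it was 0.23. Gsta3 had 7.98 ± 5.93 and 5.53 ± 4.57 CPM, with a log2 fold change of -0.06, which without MR3101 was -1.13. The genes most like Gstm4 in muscle were Dpp7 (0.974), Pgrmc2 (0.973) and Chrna1 (0.972) over 11 libraries. The 11 include MR3101, where Gstm4 was 9.73 CPM against a median of 3.28 CPM in the other muscle libraries. These correlations are not given without MR3101. Gstm3 in IWAT and Gstm6 in BAT were below the filter, with exact two-sided permutation p of 0.628 and 0.0909.

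**Figure D4:**
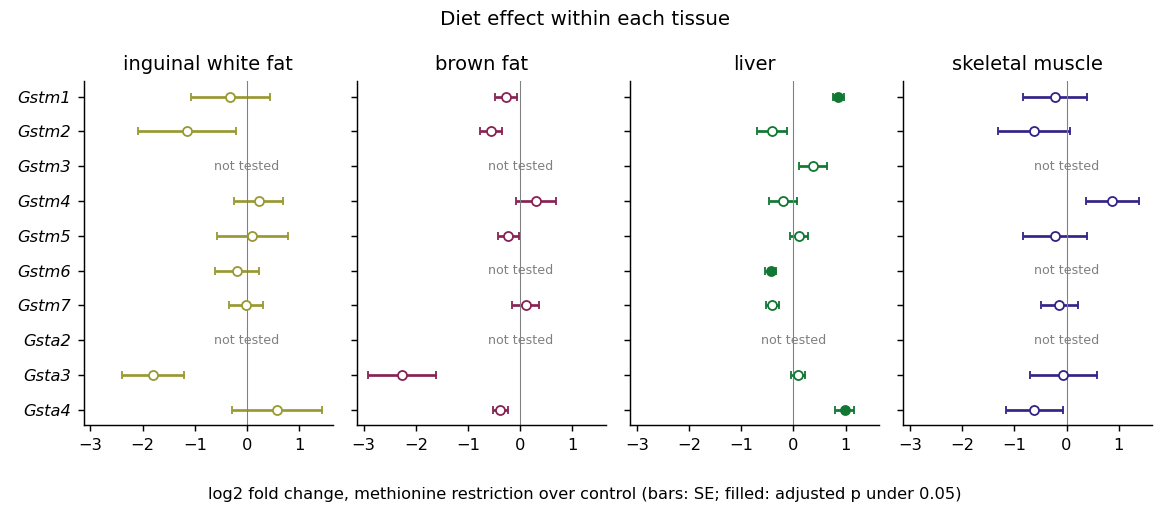
Log2 fold change of each tested member (horizontal axis) for the restricted against the control diet, by tissue, with bars of 1 SE and filled points for an adjusted p under 0.05. The 3 filled points are in liver, Gstm1 at 0.86, Gsta4 at 0.99 and Gstm6 at -0.44.

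Whether the diet effect differed between tissues was tested in 1 fit of all 47 libraries. Of 13541 genes, 71 passed (0.524%), and 0 of 10 members did in edgeR and in limma voom. The smallest p of a member was that of Gsta3 (unadjusted p = 0.0125, adjusted p = 0.224), and it alone was under 0.05 before adjustment. A fit without the 4 libraries that stand apart, chosen after seeing the data, called 259 of 13751 genes (1.88%) and 2 members, Gsta4 (adjusted p = 0.00315) and Gstm1 (adjusted p = 0.0212). In that fit the diet effect on Gsta4 in BAT minus that in liver was -1.33 ± 0.25 (adjusted p = 0.00329, where 0.713% of genes passed), and in liver minus muscle it was 1.31 ± 0.27 (adjusted p = 0.0255, 0.124% of genes). For Gstm1 it was -1.34 ± 0.30 for IWAT minus liver (adjusted p = 0.0114, 1.72% of genes) and -1.10 ± 0.28 for BAT minus liver (adjusted p = 0.0473). The call of a difference between tissues for these genes thus depended on the 4 libraries, in which both genes were low.

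Genes around the transferases were counted in lists by role, to be read against the 1.05% of all genes that rose in liver and the 1.11% called in BAT. Among the other glutathione transferases, 2 of 10 tested in liver rose and 0 fell, with a median log2 fold change of 0.10 against 0.01 over all genes. They were Gsto1 (0.98 ± 0.11, adjusted p = 0.000172), of the omega class, and Mgst3 (1.5 ± 0.37, adjusted p = 0.0446), a membrane-bound enzyme. In BAT, 1 of 12 fell, Mgst2 (-1.88 ± 0.36, adjusted p = 0.0238). Of the genes of glutathione synthesis, reduction and breakdown, 1 of 14 rose in liver, Gsr (0.42 ± 0.10, adjusted p = 0.0329), the glutathione reductase, and the median was 0.23.

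For NRF2, its inhibitor KEAP1 and targets of NRF2, 4 of 16 tested rose in liver (1.05% of all genes) and 0 fell, with a median of 0.30 against 0.01 over all genes. Ephx1, the microsomal epoxide hydrolase, had a log2 fold change of 1.06 (adjusted p = 0.000828). Aox1, an aldehyde oxidase, had 0.97 (adjusted p = 0.000189). Ugdh, which makes UDP-glucuronate, had 0.93 (adjusted p = 0.00155), and Txnrd1, a thioredoxin reductase, had 0.46 (adjusted p = 0.0316). The calls of Gsto1, Aox1, Ephx1 and Ugdh held in all 19 alternatives, while those of Mgst3, Gsr and Txnrd1 were lost in 10, 9 and 8 of 19 and that of Mgst2 in BAT in 5 of 20. None of 15 genes of conjugate export and mercapturate processing and none of 14 xenobiotic receptors and P450 genes passed in liver, with medians of 0.04 and 0.11. No list gene passed in IWAT or muscle, and Mgst2 was the single one in BAT.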

How the data were processed

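SOLiD SAGE libraries (3' tags) used 7 to 12 ng of Trizol-extracted RNA each, and tags with a single match among RefSeq genes were kept, per the labels' protocols. An aligner or counter was not given in the sources used here. Raw counts were deposited by the authors as tags per gene symbol, with no normalization and 1 table per tissue, beside a normalized signal made with DESeq (version not given; mm10, GRCm38.p1 per the submitters' processing notes). The counts were the basis of the main results, and the deposited signal served as an alternative.

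Every tissue was tested on its own with edgeR 4.0.16 (filterByExpr, TMM, quasi-likelihood F test) in R 4.3.3, with Benjamini-Hochberg adjustment over all genes tested and a threshold of 0.05. SE was worked back from F. Fits over tissues used the 24 control libraries (pairs) or all 47 (interaction). Replicates are animals, and intervals from counts cover counting error only. The same animal numbers mark the same animals in the 4 tissues, and the mean correlation of their deviations from the diet means was -0.076 to 0.063 over the 6 tissue pairs. Members below the filter with at least 100 tags in the tissue were compared with an exact permutation test of CPM. Alternatives were a replicate block, upper-quartile and total scaling, DESeq2 1.42.0, limma 3.58.1, other filters, a hepatocyte covariate and fits without libraries. The steps were tested on simulated data.

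All members are named. From each gene list, up to 6 called genes with the smallest p are named per tissue, and the 3 genes most correlated with a called member, or with the member of smallest p. Members and lists were chosen with earlier results of these data known. Distances and tags are from GENCODE vM1, coordinates and promoters from RefSeq (GRCm38.p6). Protein sequences were not used here.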

Additional observations from a re-analysis of the deposited data

Results flagged for a closer look

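In 11 of 62 groups of 5 or 6 libraries, the highest or lowest value of a member lay far from the others. The nominal rate by chance is about 1 in 20 groups, for independent values with a normal spread. These groups share libraries, and the values are CPM. In the IWAT library of MR3116, Gsta4 was 0.483 CPM (next lowest 76.3), Gstm1 2.41 CPM (next 154) and Gstm5 0.644 CPM (next 16.6). In muscle, MR3101 had 13.6 CPM of Gsta3 (next highest 4.65). In IWAT, CON3115 had 12.8 CPM of Gstm4 (next 5.96). These 3 libraries are among the 4 that stand apart. The other values were in libraries that do not. In BAT, CON3106 had 206 CPM of Gsta3 (next 30.6), MR3102 had 29.5 CPM of Gstm2 (next 18.4) and MR3109 had 10.2 CPM of Gstm4 (next 4.68). In IWAT, CON3103 had 27.4 CPM of Gstm7 (next 13.6). In liver, MR3101 had 42.6 CPM of Gstm2 (next 25.2), and in muscle, CON3107 had 14.2 CPM of Gstm7 (next 7.5).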

How the results depend on the processing

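The calls of Gstm1 and Gsta4 in liver held in every alternative run, and 0 of the 28 diet results that did not pass were called in any. Of 617 alternatives for the member diet results, 11 lost a call, all of Gstm6 in liver, and 0 called results reversed. Among results that did not pass, 11 changed sign in at least 1 alternative. Leaving out a library gave 2 to 4 members called in liver and 0 in the other tissues and in the interaction. Leaving out the 4 libraries that stand apart gave 2 members in the interaction, against 0. With the animal as a replicate block the interaction gave 0 members and the tissue pairs 30 calls, against 32, and the block changed no other call than the 2 named. Over the tissue pairs, leaving out an animal gave 29 to 37 calls and leaving out the IWAT libraries that stand apart 40 (9 gained, 1 lost). Over all genes, DESeq2 called 490 in liver, 317 in BAT and 310 in IWAT, and library totals 625 in liver and 66 in IWAT, against 248, 120 and 3 genes. The interaction over all genes gave 41 with the replicate block, 119 with limma voom and 23 to 847 without an animal, against 71. With library totals, the share of called genes higher in the first tissue went from 50.9% to 73.8% (IWAT over BAT), 52.7% to 79.5% (IWAT over liver), 55.9% to 77.2% (IWAT over muscle), 54.7% to 72% (BAT over liver), 51.4% to 64.6% (BAT over muscle) and 48.7% to 41.7% (liver over muscle). The cause of these shifts was not tested. Few tags limit the precision for Gsta2 in every tissue and for Gstm3 outside liver.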
